A study of Drosophila melanogaster with 6 samples.

Results

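The genes described here are those whose RNA stood far higher in one ventral library, ventral replicate 1, than in any other library of the study. A gene was taken when its normalized count in ventral replicate 1 was at least 50 and at least 3 times the highest of the other 5 libraries. This rule took 120 genes of 17559 identifiers, a share of 0.683%. The values that chose the genes are those of the libraries themselves, so the high level in ventral replicate 1 is a description and carries no test.

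The libraries hold polyadenylated RNA of GFP-labelled neuroepithelial cells of the outer proliferation centre, drawn by hand with a glass micropipette from brains of Drosophila melanogaster larvae, labelled female, late in the second instar. There were 3 libraries from the dorsal and 3 from the ventral part of this epithelium, with no treatment in either group, and each library pooled cells of 3 to 4 brains. Neither the driver behind the GFP label nor the genotype of the larvae is given in the sources used. The labels do not say whether replicates came from separate days, so every p-value measures the spread between these pooled samples. Counted reads ran from 21114019 to 27815885 per library. Levels are the authors' normalized counts (read counts divided by 1 size factor per library), so levels of different genes are not comparable unless scaled by length.

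Neuroblasts, medulla neurons and lamina precursors of the fly's visual system arise from the outer proliferation centre. It is patterned by transcription factors and by the secreted ligands Wingless and Dpp, and the Wnt and Dpp domains lie toward its ends. Glia cover it and wrap the neurons beneath it: surface glia at the outside, cortex glia around cell bodies and astrocyte-like glia in the neuropil. Neurons of the region express adhesion proteins of the immunoglobulin superfamily that pair on cell surfaces.

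The labels of ventral replicate 1 held against the genes that separate the groups. The dorsal gene salm stood at 10.4 normalized counts in ventral replicate 1, near the 1.24 and 7.14 of the other ventral libraries, while dorsal libraries held 873 to 1483. The ventral gene disco stood at 1536 in ventral replicate 1, at 915 and 807 in the other ventral libraries and at 15.4 to 88.7 in the dorsal libraries. Of 19 measured neuroepithelial genes, 7 were lowest and 5 highest in ventral replicate 1 (26.3% highest, beside 25.7% of all measured genes). The share of all measured genes lowest in ventral replicate 1 was not computed. Counts of lowest genes, here and below, therefore have no background to be read against. The junction gene shg (E-cadherin) stood at 2281 there and at 2668 to 5191 in the other 5 libraries. The epithelial marker genes were therefore read in this library, with shg lower than in every other library. The label of sex did not hold in the same way. The dosage compensation RNA roX2 (lncRNA:roX2), known from males, stood at 15420, 6615 and 0 in the dorsal and at 6532, 76.6 and 5794 in the ventral libraries labelled female. High roX2 was thus shared by ventral replicate 1 with 3 other libraries, and its part in the level of the 120 genes was not tested. Without these 4 libraries 1 library a group remains, which allows no test.

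The same rule with another library in the place of ventral replicate 1 took fewer genes. It took 56 for ventral replicate 2, 11 for ventral replicate 3 and 13, 18 and 4 for dorsal replicates 1, 2 and 3. As a share of the 7305 genes with at least 50 normalized counts in ventral replicate 1, the 120 genes are 1.64%, against 0.767% for ventral replicate 2 and 0.056% to 0.248% for the remaining libraries.

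**Figure D1:**
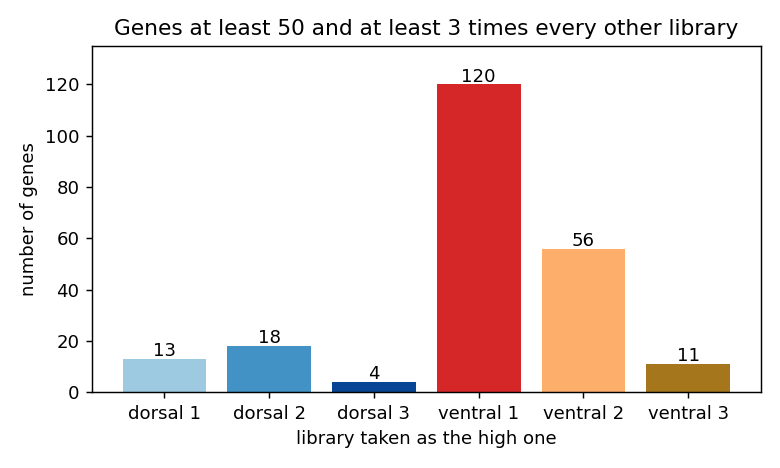
Number of genes (y axis) that stood at 50 normalized counts or more and at least 3 times every other library, counted for each of the 6 libraries (x axis). Ventral 1 has 120 genes, ventral 2 has 56 and the remaining libraries have 4 to 18.

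The 120 genes held 0.208% of the counted reads of ventral replicate 1 (95% Wilson interval 0.206% to 0.209%). They held 0.0255% and 0.0208% in ventral replicates 2 and 3, and 0.0141%, 0.034% and 0.0153% in dorsal replicates 1, 2 and 3. Such intervals cover counting error at most, not the spread between libraries or the choice of genes. These reads carry no molecular identifiers, so copies made in amplification could be counted as separate reads. The median gene stood at 153 normalized counts in ventral replicate 1 and at 7.71 to 20.5 in the others. The ratio of ventral replicate 1 to the highest other library had a median of 4.41 and ran from 3.01 to 37.6. It was at least 5 for 47 genes, at least 10 for 14 and at least 20 for 6. Ventral replicate 1 held 55 to 8991 reads per gene. In the other 5 libraries 74 of the 120 genes stayed below 50 normalized counts and 16 below 10. The 10 genes with the highest normalized counts made up 49.8% of the summed level of all 120, and Obp44a alone made up 16.5%. In these bulk libraries more cells of a type and more RNA per cell cannot be told apart.

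**Figure D2:**
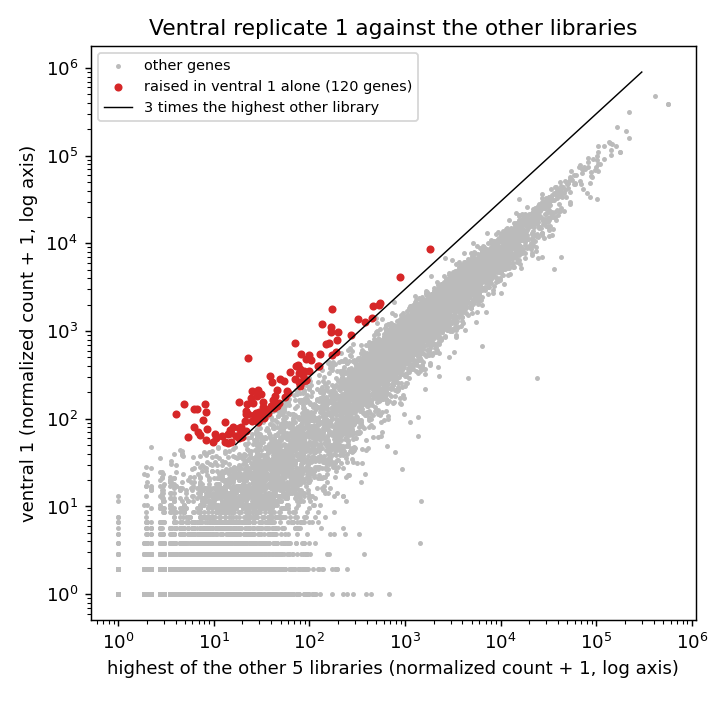
Normalized count in ventral 1 (y axis, log) against the highest of the other 5 libraries (x axis, log) for every gene, with 1 added to each value. The 120 genes, in red, lie above the line at 3 times the highest other library, with ratios of 3.01 to 37.6.

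Genes known from glia were among those with the highest normalized counts in ventral replicate 1, a ranking not scaled by length. Obp44a, an odorant-binding protein gene expressed in glia of the central nervous system (FBgn0033268, chromosome 2R, 8134170 to 8135315, minus strand, BDGP6), stood at 364, 1840 and 591 in dorsal replicates 1, 2 and 3. It stood at 8526, 1112 and 607 in ventral replicates 1, 2 and 3. Its high library was 4.63 times dorsal replicate 2, and the other 4 libraries lay lower still. Obp44a shares 205 bp of exon, 19.1% of its exon bases, with Pabp2 on the opposite strand. Pabp2 was lowest in ventral replicate 1 (8664, against 12860 to 14690 elsewhere). Whether reads were counted by strand is not stated, so reads in shared bases cannot be assigned.

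Other genes of glial classes were taken as well. The potassium-dependent sodium-calcium exchanger gene zyd (chromosome X, 23022898 to 23035550, plus strand), which acts in cortex glia, stood at 101, 198 and 16.1 in the dorsal and at 987, 81.5 and 17.3 in the ventral libraries. The immunoglobulin gene wrapper (chromosome 2R, 22379637 to 22382675, plus strand), whose product lets glia wrap axons, stood at 24.1, 189 and 64.2 in the dorsal and at 576, 12.3 and 67.3 in the ventral libraries. In both genes dorsal replicate 2 came next after ventral replicate 1. The astrocyte marker gene alrm (chromosome 3R, 25381065 to 25382781, minus strand) stood at 8.67, 17.5 and 2.83 in the dorsal and at 153, 2.47 and 0 in the ventral libraries. Its count of 0 in ventral replicate 3 allows up to 3.06 normalized counts. The Nimrod receptor family gene NimA stood at 38.5, 196 and 2.83 in the dorsal and at 784, 97.5 and 22.4 in the ventral libraries.

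The related glial solute carrier genes kumpel, bumpel and rumpel were all taken by the rule. kumpel stood at 57.8, 107 and 5.66 in the dorsal and at 548, 25.9 and 127.5 in the ventral libraries. bumpel stood at 62.6, 76.8 and 0.944 in the dorsal and at 328, 4.94 and 2.04 in the ventral libraries. rumpel stood at 0, 4.36 and 20.8 in the dorsal and at 151, 2.47 and 24.5 in the ventral libraries. These 3 genes shared the high library but not the order of the others, in which dorsal replicate 2 followed for bumpel and ventral replicate 3 for kumpel and rumpel.

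Of the 29 measured genes of the glia list, meaning those with a mean of at least 10 normalized counts over the 6 libraries, 4 belonged to the 120 (wrapper, alrm, zyd and NimA), or 13.8%. Over all 8814 measured genes the share was 1.36%. The mean that defines measured genes includes ventral replicate 1. A gene such as alrm (mean 9.65 in dorsal libraries, 1.23 in ventral replicates 2 and 3) was measured only through that library. Shares of measured genes, in every list and over all genes, thus rest in part on the library that chose the 120. The list was drawn up with results on some of its genes known, and it describes these genes without a test. The summed level of the list was 82110 in ventral replicate 1 and ran from 71660 to 98710 in the other libraries. Most of that sum came from nrv2 (29030 in ventral replicate 1), PRL-1 (23120) and pnt (12380), none of them among the 120. The sum therefore says little about glial genes of lower level. In ventral replicate 1, 6 of the 29 genes were lowest. The defining glial gene repo missed the limit at 2.8 times the highest other library, with 75.9 in ventral replicate 1 and 3.85 to 27.1 elsewhere. Further glial genes divided between higher and lower. The cortex glia gene Cyp4g15 stood at 405 against 36.8 to 164. The glutamine synthetase gene Gs2 stood at 283 in ventral replicate 1 and at 232 in dorsal replicate 2. The subperineurial gene moody stood at 201 in ventral replicate 1 and 289 in dorsal replicate 1, and the GABA transporter gene Gat was lowest in ventral replicate 1 (47.4 against 84.7 to 656). Glial genes thus did not share one pattern: 12 of the 29 were highest in ventral replicate 1, beside 25.7% of all measured genes. The part of glial cells in the level of the 120 genes was not tested.

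Genes of the synapse formed another group. The synaptic vesicle gene nSyb (FBgn0013342, chromosome 3L, 1630348 to 1637752, minus strand) stood at 26.01, 26.2 and 40.6 in the dorsal and at 976, 167 and 15.3 in the ventral libraries. The vesicular glutamate transporter gene VGlut (chromosome 2L, 2400295 to 2410662, plus strand) stood at 114, 150 and 115.1 in the dorsal and at 716, 132 and 92.8 in the ventral libraries. The level of nSyb in ventral replicate 2 was above those in the 4 remaining libraries, whereas VGlut was even across the 5. The active zone scaffold gene Rim stood at 16.4, 57.6 and 26.4 in the dorsal and at 208, 33.3 and 52.0 in the ventral libraries. Synapsin (Syn), a vesicle phosphoprotein gene, stood at 4.82, 7.85 and 9.44 in the dorsal and at 80.6, 3.70 and 18.4 in the ventral libraries.

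Genes of the neuron list differed from one another. Of 29 measured genes of the neuron list, 4 belonged to the 120 (13.8%, beside 1.36% of all measured genes), 11 were highest (37.9%, beside 25.7% of all measured genes) and 3 lowest in ventral replicate 1. The potassium channel gene Sh stood at 394 against 21.2 to 172, the GABA receptor gene Rdl at 153 against 10.6 to 79.3 and the kinesin gene unc-104 at 816.5 against 254 to 469. The summed level of the list was 50950 in ventral replicate 1 and 49610 to 83970 in the others. Most of that sum came from CaMKII (13140 in ventral replicate 1), unc-13 (9169), elav (6849) and fne (6797). It therefore says little about neuronal genes of lower level. The pan-neuronal gene elav stood at 6849 in ventral replicate 1 and at 5808 to 14660 elsewhere. Syt1 (465) and brp (168) were second to ventral replicate 2 (666 and 524). The cholinergic gene ChAT stood at 49.3 in ventral replicate 1 and 190 in ventral replicate 2, while the GABA synthesis gene Gad1 was higher in ventral replicate 1, at 79.7 and 53.1. The part of neurons in the level of the 120 genes was not tested.

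Among the 120 genes, 9 were given the role of receptor or channel of neurons, and the rule took them because they were lower elsewhere. Others on the neuron list were not low elsewhere, such as nAChRalpha1 (1014 in ventral replicate 1 and 551 to 789 in the others) and the calcium channel gene cac (431.5 and 406 to 1848). The glutamate-gated chloride channel gene GluClalpha stood at 1.93, 35.8 and 62.3 in the dorsal and at 342, 12.3 and 9.18 in the ventral libraries. The acetylcholine receptor subunit gene nAChRalpha2 stood at 3.85, 23.6 and 0.944 in the dorsal and at 172, 14.8 and 2.04 in the ventral libraries. For nAChRalpha6 ventral replicate 1 stood at 180 and the next library, ventral replicate 2, at 43.2. The libraries in second place differed among these channel genes. The peptide receptor genes TrissinR and Proc-R stood at 60.7 and 92.0 in ventral replicate 1, with highest other values of 4.36 and 12.3. The serotonin receptor gene 5-HT1B and the metabotropic GABA receptor gene GABA-B-R3 stood at 65.4 and 62.6. The potassium channel gene Elk stood at 113, and qvr, which encodes a modulator of the Shaker channel, at 125. The 9 genes of this group summed to 1213 normalized counts in ventral replicate 1 and to 44.3 to 160 elsewhere.

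Surface proteins of the immunoglobulin and leucine-rich repeat families made up a further 9 genes. Amalgam (Ama, chromosome 3R, 6762593 to 6765261, plus strand), a secreted ligand of Neurotactin, stood at 208, 554 and 95.3 in the dorsal and at 2100 (2214 reads), 286 and 163 in the ventral libraries. Its receptor gene Nrt stood at 4229 in ventral replicate 1 and at 3066 to 7298 in the others, so ligand and receptor genes did not share the pattern. DIP-lambda stood at 1.93, 20.9 and 27.4 in the dorsal and at 398, 3.70 and 71.4 in the ventral libraries. From the Dpr family, whose products bind those of the DIP family, dpr17 stood at 65.4 in ventral replicate 1 against at most 9.44. Whether the products of DIP-lambda and dpr17 bind each other was not tested. In the Dpr and DIP list, which does not hold DIP-lambda, dpr17 was the single member among 16 measured genes (6.25%, beside 1.36% of all measured genes). Only through ventral replicate 1 did dpr17 count as measured (mean 6.44 in dorsal libraries, 5.21 in ventral replicates 2 and 3). The leucine-rich repeat gene kek2 (chromosome 2L, 11581937 to 11626883, plus strand) stood at 1.93, 5.24 and 4.72 in the dorsal and at 130, 3.70 and 4.08 in the ventral libraries, a ratio of 24.8. The beaten path family, whose products guide axons, gave 4 genes. In ventral replicate 1 beat-Ia, beat-Ib, beat-IIIb and beat-VII stood at 121, 133, 109 and 112, with ratios of 3.66, 3.16, 4.28 and 5.15. beat-Ic lay just outside the limit at 2.96 times the next library. side-VI, of the sidestep family whose members bind beaten path proteins, stood at 92.0 with a ratio of 3.24. In the adhesion and guidance list as a whole beat-Ia was the single member among 43 measured genes (2.33%, beside 1.36% of all measured genes). Of the 43, 19 were lowest in ventral replicate 1, a count without a background share over all measured genes.

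The 7 transcription factor genes had a median ratio of 10.7. The rule used this ratio, and roles were assigned after the genes were seen, so role groups are not ranked by it. CG4328 had the second highest ratio of the 120 genes, over a highest other value of 3.06, which is near 0. The LIM homeodomain genes CG4328 (chromosome 3L, 12290956 to 12296123) and Lmx1a (chromosome 3L, 12329232 to 12335901) were taken, while Lim1, Lim3, tup and Awh of the same class, with ratios of 0.26, 0.649, 1.12 and 1.14, were not. CG4328 stood at 0, 1.75 and 2.83 in the dorsal and at 113, 1.23 and 3.06 in the ventral libraries, a ratio of 36.9. Lmx1a stood at 21.2, 12.2 and 1.89 in the dorsal and at 145, 2.47 and 6.12 in the ventral libraries. The Ets gene Ets65A (chromosome 3L, 6097617 to 6123913) stood at 0, 21.8 and 5.66 in the dorsal and at 496, 18.5 and 0 in the ventral libraries. Its counts of 0 allow up to 2.89 normalized counts in dorsal replicate 1 and 3.06 in ventral replicate 3.

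Zinc finger and other factors followed. Rotund (rn, chromosome 3R, 7272617 to 7309629) stood at 119 in ventral replicate 1 against 0.963 to 7.41. The BTB domain gene lov stood at 58.8, 12.2 and 8.49 in the dorsal and at 740, 30.9 and 69.4 in the ventral libraries. Krüppel (Kr, chromosome 2R, 25226611 to 25231394), a gap gene that is also used in neural lineages, stood at 22.2, 144 and 31.1 in the dorsal and at 1110, 167 and 131 in the ventral libraries. Sox102F, on chromosome 4, stood at 76.1, 87.3 and 71.7 in the dorsal and at 349, 9.88 and 1.02 in the ventral libraries. It was thus lowest in both remaining ventral libraries while being highest in ventral replicate 1. Of 29 measured patterning transcription factor genes Kr and rn belonged to the 120 (6.9%, beside 1.36% of all measured genes). Of the 29, 15 were highest in ventral replicate 1 (51.7%, beside 25.7% of all measured genes). Only through that library did rn count as measured (mean 1.85 in dorsal libraries, 4.72 in ventral replicates 2 and 3).

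Wnt4 was the single member from the list of genes of the Wnt and Dpp domains at the ends of the epithelium. That is 7.69% of its 13 measured genes, beside 1.36% of all measured genes. Of the 13, 5 were highest in ventral replicate 1 (38.5%, beside 25.7% of all measured genes) and 2 lowest. Sp1 was among the lowest (114 against 341 to 983 elsewhere). The Wnt ligand gene Wnt4 (FBgn0010453, chromosome 2L, 7255419 to 7277171, minus strand) stood at 63.6, 150 and 149 in the dorsal and at 1984, 538 and 401 in the ventral libraries. Every ventral library was thus above every dorsal one. The Dpp ligand gene dpp stood at 2170 in ventral replicate 1, at 107 and 296 in ventral replicates 2 and 3, and at 351 to 774 in the dorsal libraries, 2.8 times the next. Both ligand genes were therefore highest in ventral replicate 1, but dpp was low in the other ventral libraries. The T-box gene bi, a target of Dpp in other tissues, stood at 6863 against 1357 to 2656 elsewhere. The homeobox gene Rx, which marks the outer arms of the epithelium, stood at 212 in ventral replicate 1, at 0 and 22.4 in the other ventral libraries and at 3.78 to 72.4 in the dorsal libraries. The gene Vsx1 of the central domain was lowest in ventral replicate 1 (98.6 against 117 to 436). Optix, which marks the domain between Vsx1 and Rx, stood at 4405 against 2692 to 6170. The Wnt genes Wnt6 and Wnt10 stood at 1.90 and 0 in ventral replicate 1, and Dll, a gene of the tips, at 22.8 against 3.85 to 35.8. Markers of this axis thus differed from library to library, and their part in the level of the 120 genes was not tested.

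Long noncoding RNA cherub (lncRNA:cherub, chromosome 3R, 11247631 to 11256123, minus strand), known from neuroblasts, had the second highest normalized count, not scaled by length. It stood at 83.8, 222 and 125 in the dorsal and at 4155, 251 and 881 in the ventral libraries. Neuroblast genes themselves were read in all libraries: wor stood at 12990 in ventral replicate 1 against 2701 to 7193, and dpn at 1935 against 522 to 1267. By contrast ase stood at 11110 in ventral replicate 1 and 11740 in dorsal replicate 2, and insc at 378 against 238 to 791. Of 16 measured neuroblast genes none belonged to the 120, beside 1.36% of all measured genes. Of the 16, 5 were highest in ventral replicate 1 (31.2%, beside 25.7% of all measured genes). The median difference of ventral replicate 1 from the median of the other 5 was 0.29 on the log2(normalized count + 1) scale for this list and 0.01 for all measured genes.

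A set of 18 genes was given the role of metabolism, meaning enzymes, transporters and carriers. Tdh (threonine dehydrogenase) and Gcat (glycine C-acetyltransferase), which act one after the other in breaking down threonine, stood at 532 and 370 in ventral replicate 1. In the other 5 libraries they ran from 51.0 to 97.3 and from 16.4 to 79.4. The monocarboxylate transporter gene kar stood at 465 against 43.2 to 103.8, and the phosphate cotransporter gene Picot at 1279 against 54.1 to 378. The lipophorin gene apolpp stood at 106, 158 and 12.3 in the dorsal and at 739, 159 and 18.4 in the ventral libraries. The level of apolpp differed widely among the other libraries, too. The dopa decarboxylase gene Ddc stood at 210 against at most 28.4, and the transferrin gene Tsf1 at 208 against at most 24.4. The ecdysone synthesis gene spok stood at 285 against at most 47.9. The N-acetylglucosamine kinase gene Nagk stood at 1916 against 235 to 460, and shares 21.9% of its exon bases with Cyfip and 17% with SerRS-m, both on the opposite strand. Cyfip was also highest in ventral replicate 1 (3479 against 1700 to 2368).

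**Figure D3:**
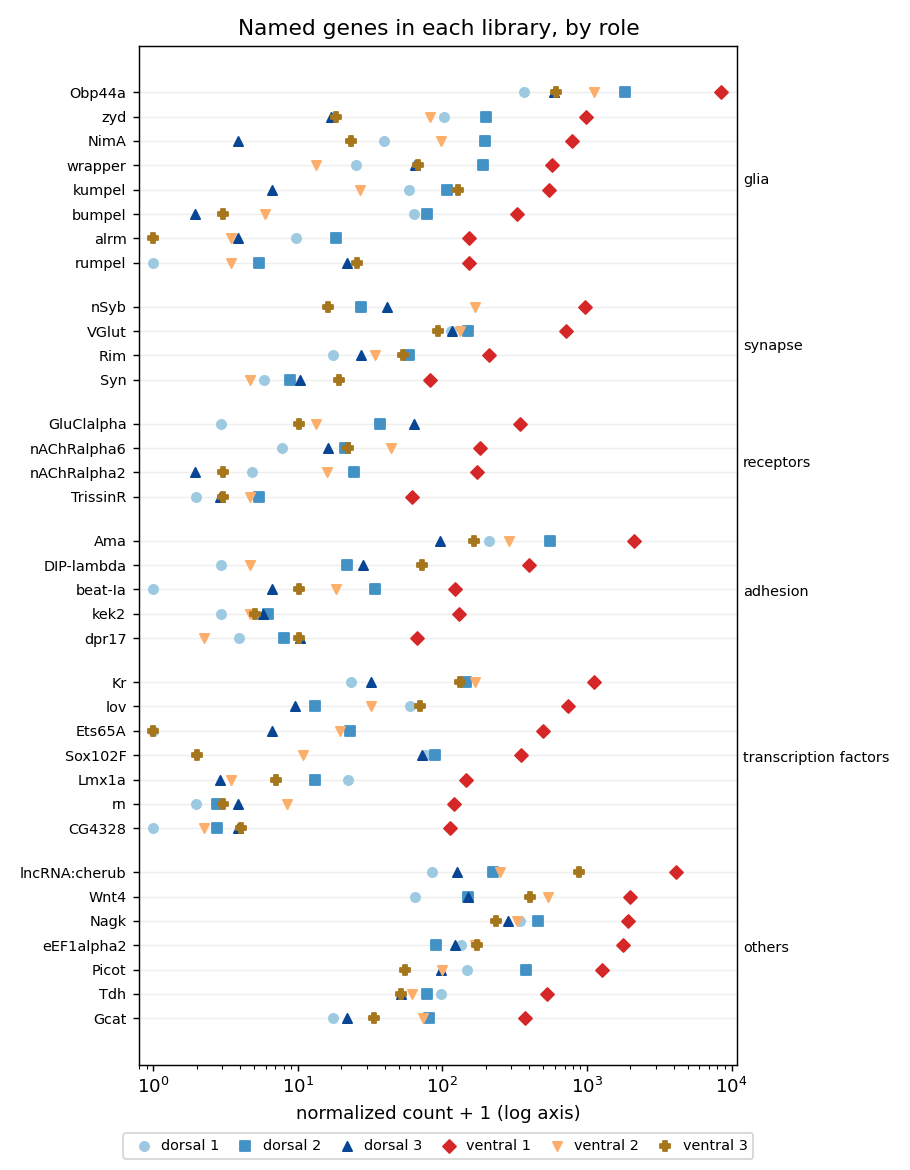
Normalized count plus 1 (x axis, log) of 35 named genes in each of the 6 libraries, grouped by role. Ventral 1, the red diamonds, lies to the right of every other library by construction, while the order of the other 5 differs from gene to gene.

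Several abundant genes fall outside these groups. The elongation factor gene eEF1alpha2 stood at 133, 89.9 and 122 in the dorsal and at 1765, 167 and 171 in the ventral libraries, a ratio of 10.3. It has a close paralog, not analysed here, with which reads could be shared. The G protein gamma subunit gene Ggamma30A stood at 1400 in ventral replicate 1, at 447 in ventral replicate 2 and at 4.08 in ventral replicate 3. The calcineurin B gene CanB stood at 1390 against 65.3 to 322, while its close paralog CanB2 stood at 3238 in ventral replicate 1 and 2310 to 3320 in the others. Whether reads were shared between CanB and CanB2 was not tested. CG9451 stood at 1214 against at most 134, and CG15210 at 893 against at most 269.

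The highest ratio of all was that of CG34370, at 145 in ventral replicate 1 against 0.944 to 3.85. CG31974 stood at 130 against at most 5.66, the sarcoglycan gene Scgdelta at 147 against at most 7.14 and CG4408 at 79.7 against at most 5.24. Scgdelta shares 10.1% of its exon bases with the annotated element roo{}20 on the same strand. FBgn0259822, an identifier with no symbol, stood at 94.8 against at most 6.74. Cht8 (a chitinase gene) stood at 69.2, prim at 74.9 and Phyhd1 at 64.5, each with a highest other value under 10. Symbols that are a CG number alone made up 36 of the 120 genes, and 116 of the 120 are protein coding.

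Scaled by exon length, the level of Obp44a in ventral replicate 1 was 467 TPM, computed from the counts over annotated genes. CG15210 followed at 86.4, CanB at 66.3, Ama at 63.5 and Nagk at 54.0. Wnt4 stood at 34.7 and lncRNA:cherub at 29.1, and wrapper and NimA at 17.2 and 16.1. By this measure lncRNA:cherub, whose exons span 8398 bp, ranked below genes with fewer reads.

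Just inside the limit were Or85f, igl and CG10863, with ratios of 3.01, 3.02 and 3.04. Just outside were the potassium channel gene SK, beat-Ic and CG5282, with 2.97, 2.96 and 2.93. SK stood at 120 in ventral replicate 1 against at most 40.6, so genes on either side of the limit had similar values.

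The rule used the highest of the other 5 libraries, whichever library that was. Dorsal replicate 2 was the highest of the 5 for 43 of the 120 genes (35.8%), against 17.7% of the other 8694 measured genes. Ventral replicates 2 and 3 were so for 26 genes each (21.7%), against 28.7% and 14.4% of the other genes, and dorsal replicates 1 and 3 for 10 and 15. Of the 8 glial genes, dorsal replicate 2 came next for 6 and ventral replicate 3 for 2. The median glial gene of this group stood at 148 in dorsal replicate 2, at 48.2 and 10.9 in dorsal replicates 1 and 3 and at 19.1 and 23.5 in ventral replicates 2 and 3. The 4 synapse genes had no common second library, with dorsal replicate 2 next for VGlut and Rim, ventral replicate 2 for nSyb and ventral replicate 3 for Syn.

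**Figure D4:**
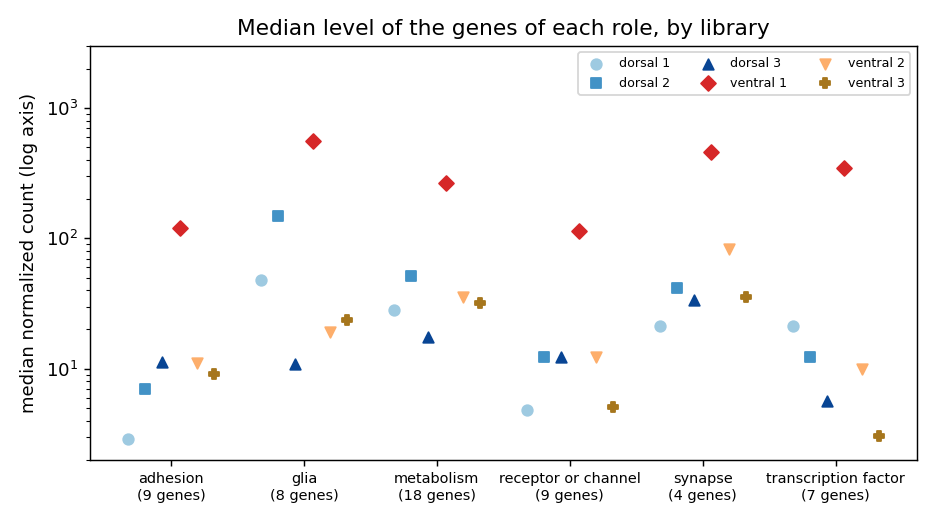
Median normalized count (y axis, log) of the genes of each role in each library. In the glial group dorsal 2 is second at 148, while in the synapse group ventral 2 is second at 82.7.

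The comparison of dorsal with ventral among the other 5 libraries describes how the genes differed between the groups there, without ventral replicate 1. The rule did use the highest of these 5 libraries. It thus left out genes of similar level in every ventral library, such as disco. The results of this comparison for the 120 genes are therefore shaped in part by the choice of genes. With edgeR's quasi-likelihood test 88 of the 120 genes were abundant enough to be tested and none passed an adjusted p under 0.05, where 0.0774% of all 9041 genes tested passed, 0.0221% as higher in dorsal and 0.0553% as higher in ventral. The smallest adjusted p among the 88 was 0.629 (edgeR). At an unadjusted p under 0.05 there were 5 of 88 (5.68%), against 5.28% of all genes. Of the 88 genes, 49 had higher values in ventral and 39 in dorsal libraries. The median log2 fold change, dorsal minus ventral, was -0.07, against 0.02 for all genes tested. The 32 genes not tested were too low in these 5 libraries. In 19 of the 120 genes the dorsal and the 2 ventral libraries did not overlap, with 8 higher in dorsal and 11 higher in ventral. That share of 15.8% stands beside 20.8% of all measured genes.

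**Figure D5:**
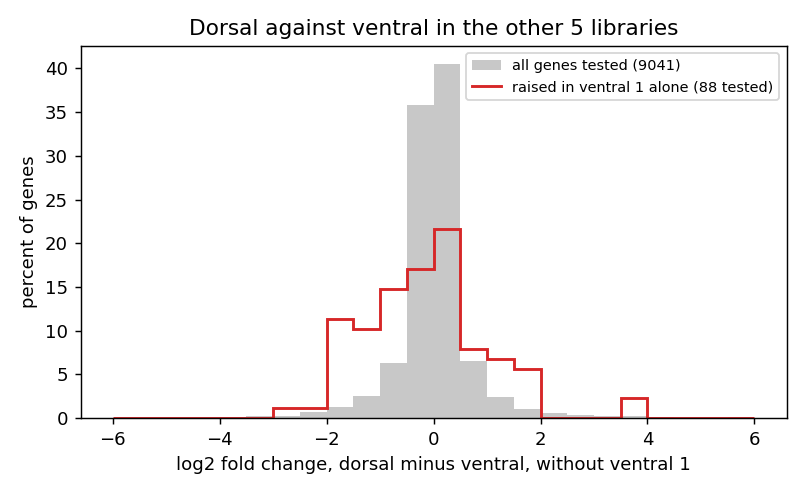
Percent of genes (y axis) by log2 fold change, dorsal minus ventral, in the 5 libraries other than ventral 1 (x axis), for all 9041 genes tested and for the 88 tested genes of the 120. The 88 genes spread to both sides, with a median of -0.07, and more widely than all genes.

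The 3 genes with the smallest p in this test were Wnt4, Sox102F and lncRNA:cherub, and none passed the threshold. Wnt4 had 121 ± 49.7 normalized counts in dorsal libraries (SD, n = 3) and 470 ± 97.2 in ventral replicates 2 and 3 (SD, n = 2), or -1.94 ± 0.44 as log2 fold change (SE; adjusted p = 0.629, edgeR). With DESeq2 its log2 fold change of -1.95 passed (adjusted p = 0.0033), as it did with edgeR and no filter on low counts (-1.92, adjusted p = 0.0227). Over its alternatives the adjusted p ran from 0.0033 to 0.998. Sox102F had 78.4 ± 8.01 in dorsal libraries and 5.45 ± 6.26 in ventral replicates 2 and 3, or 3.87 ± 1.08 on the log2 scale, toward dorsal (adjusted p = 0.817 with edgeR and 0.0021 with DESeq2, with a range over its alternatives of 0.0021 to 0.993). lncRNA:cherub had 144 ± 71.3 and 566 ± 446, or -1.97 ± 0.56 on the log2 scale (adjusted p = 0.871 with edgeR and 0.0706 with DESeq2). Its ventral level rested on ventral replicate 3, and without that library the log2 fold change was -0.77. DESeq2 called 2 of the 120 genes, Wnt4 toward ventral and Sox102F toward dorsal, where it called 0.498% of the 9034 genes to which it gave an adjusted p.

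With all 6 libraries in the test, which includes the library that chose the genes, none of the 88 tested genes passed an adjusted p under 0.05, beside 0.0919% of all 8707 genes tested (edgeR; 0.023% higher in dorsal, 0.0689% higher in ventral). At an unadjusted p under 0.05 there were 20 of 88 (22.7%, beside 3.2% of all genes), a share that follows from the choice of genes. DESeq2 called CG7991 and Wnt4, where it called 0.507% of 9666 genes. For the 88 genes the median log2 fold change of -1.84 likewise follows from the rule. For Obp44a it was -1.85 ± 1.06 (SE) with all 6 libraries and 0.14 ± 0.58 without ventral replicate 1. For nSyb it was -3.62 ± 1.11 and -1.53 ± 0.96, and for Kr -2.81 ± 0.94 and -1.16 ± 0.81. For wrapper the value was -1.22 ± 1.14 with all 6 libraries and 1.22 ± 1.03 without ventral replicate 1, so that the direction rested on this library. Sox102F likewise went from -0.60 ± 1.34 to 3.87 ± 1.08.

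By position in the genome, chromosome arm 3R held 46 of the 120 genes (38.3%), against 23.7% of the 7305 genes with at least 50 normalized counts in ventral replicate 1. Arms 2L, 2R and 3L held 20 each, the X chromosome held 11 (9.17%, against 17.1%) and chromosome 4 held 2. The other measured genes of 3R did not stand higher in ventral replicate 1, with a median log2 difference from the median of the other libraries of 0.03, against 0.04 for the X chromosome and -0.53 for the 86 genes of chromosome 4. No 2 of the 120 genes were next to each other among protein-coding genes, but lncRNA:mimi lies 270 bp from CG31140 on the same strand of 3R. The genes were longer than most, with a median span of 5251 bp against 2916 bp, while their exons summed to a median of 2656 bp against 2202 bp. Exons of 32 of the 120 genes overlapped those of another annotated gene, and for 8 genes a single neighbour covered 10% or more of the exon bases.

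Lists of markers were read for some tissues outside the nervous system, and none covered the ring gland, the tissue in which spok acts. None of 7 measured hemocyte genes, 12 muscle genes, 5 tracheal genes or 9 larval photoreceptor genes was taken, and of 5 measured fat body and gut genes apolpp was. The hemocyte gene Hml stood at 4.74 in ventral replicate 1 and at 4.72 to 10.5 in the others, and the muscle myosin gene Mhc at 19.0 against 17.3 to 33.2. Of 22 measured stress and immunity genes none was taken and 7 were lowest in ventral replicate 1. Of 12 measured lamina genes and 9 of the inner proliferation centre, none was taken. None of 12 medulla temporal factor genes was taken either, although 6 of them were highest in ventral replicate 1 (50%, beside 25.7% of all measured genes). Over all measured genes the rule took 1.36%. At that share lists this short can easily hold none, so the empty lists say little about these tissues.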

How the data were processed

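RNA was measured in 3 dorsal and 3 ventral libraries, and sample titles gave the groups. Larvae grew at 25 °C and cells were taken within 1 h, per the labels' protocols, with SMART-Seq v4 for amplification and Nextera XT for libraries. One deposited table of the authors holds raw read counts per gene. The deposited normalized counts, a signal made by the authors, equalled counts over 1 factor per library (0 values off by more than 0.01). The builds dm6 and BDGP6 and the tools featureCounts, Trimmomatic and DESeq2 are named in the submitters' processing notes, and no aligner is stated.

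Symbols, positions and exon lengths came from Ensembl's BDGP6 annotation. Identifiers absent from it took their symbol from a separate set of gene names. With both sources 17253 of 17559 identifiers (98.3%) had a symbol. The test was edgeR 4.0.16 in R 4.3.3 (TMM, filterByExpr, robust quasi-likelihood fit without covariates), adjusted by Benjamini-Hochberg across every gene tested. SE was derived from the fold change and F. The script was tested on simulated data. Alternatives were RLE factors, DESeq2 1.42.0, no filter, a replicate block and fits lacking one library. Zero counts allow up to 3 reads.

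The genes and the 26 lists (524 symbols, 486 matched) were chosen with earlier results of these data known. Roles were assigned to 55 genes after the 120 were seen. Other genes, such as Or85f, Gr47b, Nckx30C and AOX1, were given none, so the counts of genes per role are not complete. Named genes were the 15 with the highest level in ventral replicate 1, the 15 with the highest ratio, the 14 on a list, the 3 with the smallest p in the test without ventral replicate 1, the 3 on each side of the limit, and salm, salr, disco and defining markers (salr gave 2.85 in ventral replicate 1 and at least 837 in dorsal libraries). Further genes in the text were picked with their values known. The lists for neuropeptides and clock, eye disc, epidermis, germline, Hox, Notch and EGFR targets, spatial factors and dosage compensation held none of the 120. Of all measured genes 1.36% belonged to the 120. The central brain list held Kr and the Dpr and DIP list held dpr17.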

Additional observations from a re-analysis of the deposited data

How the results depend on the processing

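The rule took 119 genes on a CPM scale (117 shared with the 120) and 123 on a TMM scale (120 shared). It took 222 at a limit of 2 times the highest other library and 47 at 5 times, and 176 and 87 with a level of at least 20 and at least 100. Leaving 1 of the other 5 libraries out of the comparison gave 130 to 172 genes, most without ventral replicate 2.

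In the test without ventral replicate 1, 2 genes passed toward dorsal and 5 toward ventral. DESeq2 called 18 and 27, and unfiltered edgeR 10 and 20. Of the 120 genes, DESeq2 called 2 and edgeR with no filter 1. The cause was not tested. Fits lacking one more library gave 2 dorsal genes each, 1 to 5 ventral genes and 0 of the 120. The ventral count was 2 without dorsal replicate 1, 3 without dorsal replicate 2 or 3, and 1 without ventral replicate 2, a fit in which 1 ventral sample borrows the dorsal spread.

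With all 6 libraries, 2 genes passed toward dorsal and 6 toward ventral. DESeq2 called 14 and 35 (2 of the 120), edgeR with no filter 4 dorsal genes, and leaving out each library gave 2 to 3 and 2 to 6, with 2 ventral genes without dorsal replicate 1 and 0 of the 120 in each fit.

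Deviations of same-numbered libraries from their group means correlated at 0.006, -0.034 and 0.062, so numbers were not taken as pairs. With the replicate block, 6 dorsal and 13 ventral genes were called without ventral replicate 1, and 2 and 5 with all 6 libraries, with 0 of the 120 in both.

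A level near 3 reads cannot be told from 0, which limits the ratios of the genes lowest in the other libraries.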
